A study of Mus musculus with 93 samples.

Results

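The 8 genes described here belong to 2 linked cytokine systems of myeloid blood cells. Csf3r, Csf1r, Csf2ra and Csf2rb encode receptor chains for the colony-stimulating factors, and Il1b, Il1r2, Il1rn and Il1rap encode a ligand, a decoy receptor, a receptor antagonist and an accessory receptor chain of the interleukin-1 (IL-1) system. They were taken by gene symbol, as 8 of the 18193 genes that had a probe set with a single symbol, and together they had 18 of the 45037 probe sets tested. Each gene was read by its brightest probe set on average, and its other probe sets are given beside it.

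Colony-stimulating factors drive the formation and survival of granulocytes and monocytes. G-CSF acts through Csf3r and M-CSF through Csf1r, while GM-CSF binds the alpha chain Csf2ra, which signals together with the shared beta chain Csf2rb. IL-1 beta is made as a precursor that an inflammasome cleaves before release; it acts on a receptor pair that needs the accessory chain Il1rap, and its action is limited by the decoy receptor Il1r2, which binds the ligand without signaling, and by the antagonist Il1rn, which occupies the receptor. In blood, neutrophils and monocytes carry most of these transcripts.

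Transcripts were measured on 93 Affymetrix mouse arrays, 1 per sample, of total white blood cells drawn from the cheek of female mice on an FVB/NJ background. The 65 tumor samples came from MMTV/c-MYC mice with mammary tumors, in which the hormone-responsive promoter of a mammary tumor virus drives c-MYC or a more stable variant of it mainly in the mammary gland. The 28 control samples came from wild type mice without tumors, matched for age and parity, and all mice were kept in continuous breeding. The arrays were divided by cohort and by the number in the label into 52 late-numbered tumor arrays (27 training, 25 validation), 13 early-numbered tumor arrays (5 training, 8 validation) and 28 control arrays (14 training, 14 validation); the labels do not say what the numbers mark. Blood was drawn at intervals and the labels name no animals, so the p-values measure the spread between arrays. Because the samples were whole leukocyte pellets, fewer cells of a type and less RNA per cell cannot be told apart.

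The sets also differed in measures that are not biological. The bacterial spike-in dap had a mean log2 signal of 8.56 ± 0.792 in late-numbered tumor arrays, 2.7 ± 0.505 in early-numbered tumor arrays and 2.22 ± 0.322 in controls (SD, n = 52, 13 and 28). The 5' minus 3' signal of actin, which falls when RNA is degraded or shortened, averaged -0.538 ± 0.282 in late-numbered, -1.42 ± 0.227 in early-numbered and -0.643 ± 0.103 in control arrays. These technical values and the set of an array cannot be told apart. Late-numbered array 19 of the validation cohort stood apart from the other 51, with a median Pearson r of 0.91 to its own set, the highest means of the T cell (10.8) and NK cell (10.6) marker lists and the lowest of the monocyte (7.85), B cell (6.01) and platelet (8.31) lists. The lists were checked for the labelled cell type: 6 general leukocyte markers averaged 12.4 to 13.1 in late-numbered, 12.2 to 12.8 in early-numbered and 12.5 to 12.8 in control arrays, and 11 mammary epithelial markers between 3.63 and 5.09, 3.57 and 4.74, and 3.44 and 4.26.

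Promoter sequence was held for 6 of the 8 genes, with 8 annotated starts in all. The 4 below are shown because they belong to the genes with the largest differences between late-numbered and early-numbered arrays (Csf2ra, Il1r2, Csf3r) and to the ligand Il1b; each runs from 250 bases before to 50 bases after a start annotated by RefSeq in the reference strain's build GRCm38.p6, read in the direction of transcription. Capitals mark 3 motifs searched on either strand, which are GAGGAA, the core that the myeloid factor PU.1 binds, TATAAA, the TATA box, and a loose kappaB motif, GGG and CC parted by 5 bases of any kind. They lie at chr4:126024409-126024708 on the plus strand for Csf3r, chr19:61228369-61228668 on the minus strand for Csf2ra, chr2:129371090-129371389 on the minus strand for Il1b and chr1:40085843-40086142 on the plus strand for Il1r2.
Csf3r: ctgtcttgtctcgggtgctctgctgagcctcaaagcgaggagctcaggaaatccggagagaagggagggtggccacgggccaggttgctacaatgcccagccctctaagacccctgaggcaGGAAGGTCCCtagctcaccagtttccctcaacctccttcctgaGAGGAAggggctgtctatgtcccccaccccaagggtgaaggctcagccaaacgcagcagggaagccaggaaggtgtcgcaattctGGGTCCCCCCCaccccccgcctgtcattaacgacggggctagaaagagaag
Csf2ra: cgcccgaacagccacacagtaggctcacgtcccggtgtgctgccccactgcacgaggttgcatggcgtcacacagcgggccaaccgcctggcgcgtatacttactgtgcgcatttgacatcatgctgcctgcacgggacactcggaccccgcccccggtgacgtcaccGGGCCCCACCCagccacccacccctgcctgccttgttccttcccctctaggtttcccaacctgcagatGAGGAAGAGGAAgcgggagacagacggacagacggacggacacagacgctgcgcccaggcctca
Il1b: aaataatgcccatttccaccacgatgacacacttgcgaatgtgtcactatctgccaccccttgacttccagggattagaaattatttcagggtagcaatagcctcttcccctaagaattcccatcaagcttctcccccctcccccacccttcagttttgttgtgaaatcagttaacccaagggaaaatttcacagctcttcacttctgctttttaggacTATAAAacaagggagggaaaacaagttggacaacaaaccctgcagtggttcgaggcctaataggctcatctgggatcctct
Il1r2: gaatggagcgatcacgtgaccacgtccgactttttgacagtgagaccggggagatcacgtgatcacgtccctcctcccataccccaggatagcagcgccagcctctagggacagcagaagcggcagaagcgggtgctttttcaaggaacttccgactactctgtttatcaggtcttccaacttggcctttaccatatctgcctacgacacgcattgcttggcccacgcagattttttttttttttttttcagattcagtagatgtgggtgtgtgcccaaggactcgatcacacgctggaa

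The PU.1 core was found in 2 of the 8 promoters, once in Csf3r, beginning 86 bases before the start, and 2 times side by side in Csf2ra, beginning 14 and 8 bases before it. Of 32851 promoters of this length 28.3% held it. TATAAA began 31 bases before the start of Il1b. It also occurred at 1 of 3 starts of Il1rn, there on the opposite strand and after the start. Of all promoters 13.6% held TATAAA. The kappaB motif was in 6 of the 8 promoters and in 50.8% of all. The 6 include all 3 starts of Il1rn, where overlapping windows hold the same match. In Csf3r the motif began 129, 1 and 0 bases before the start, and the last 2 matches overlap. In Csf2ra it began 82 and 81 bases before the start, and both matches overlap. The C/EBP motif TTGCNNAA was in 0 of the 8 promoters and in 10.8% of all. The Il1r2 window has no capitals because none of these motifs occurred there.

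Late-numbered tumor arrays were first compared with controls. Of the 8 genes, 6 rose in late-numbered tumor blood (Il1r2, Il1rap, Csf2ra, Csf3r, Csf1r and Il1b), 0 fell, and Csf2rb and Il1rn did not pass the test; at an unadjusted p under 0.05, 7 were higher and 0 lower. Every call rests on limma with an adjusted p under 0.05 over all probe sets. In the same comparison 43.8% of all probe sets were called, 23.9% higher and 19.9% lower, and the median difference was 0.79 over the 8 genes and 0.04 over all genes. In early-numbered tumor arrays 0 of the 8 genes were called higher than in controls and 2 lower (Csf2ra and Il1b), with the same counts at an unadjusted p under 0.05, where 62.6% of all probe sets were called, 37.9% higher and 24.6% lower. Both early-numbered calls were lost, and 3 or 5 of the 8 genes were called higher, with marker list means or components of the control probe sets as covariates. Of all 45037 probe sets these 2 fits called 14874 and 12429 higher. Both comparisons with controls share the 28 control arrays. Between the sets of tumor arrays, 6 of the 8 genes were higher in late-numbered than in early-numbered arrays and 0 lower, with the same counts at an unadjusted p under 0.05, against 68% of all probe sets called, 27% higher and 41% lower. Those shares include dim probe sets. All 8 genes were among the 22517 probe sets above the median level, where the directions differed. There 28.2% of the calls in early-numbered arrays against controls were higher, and 63.9% of those between the tumor sets. The median differences there were -0.213 and 0.212. Over all probe sets 60.6% and 39.6% of the calls were higher.

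**Figure D1:**
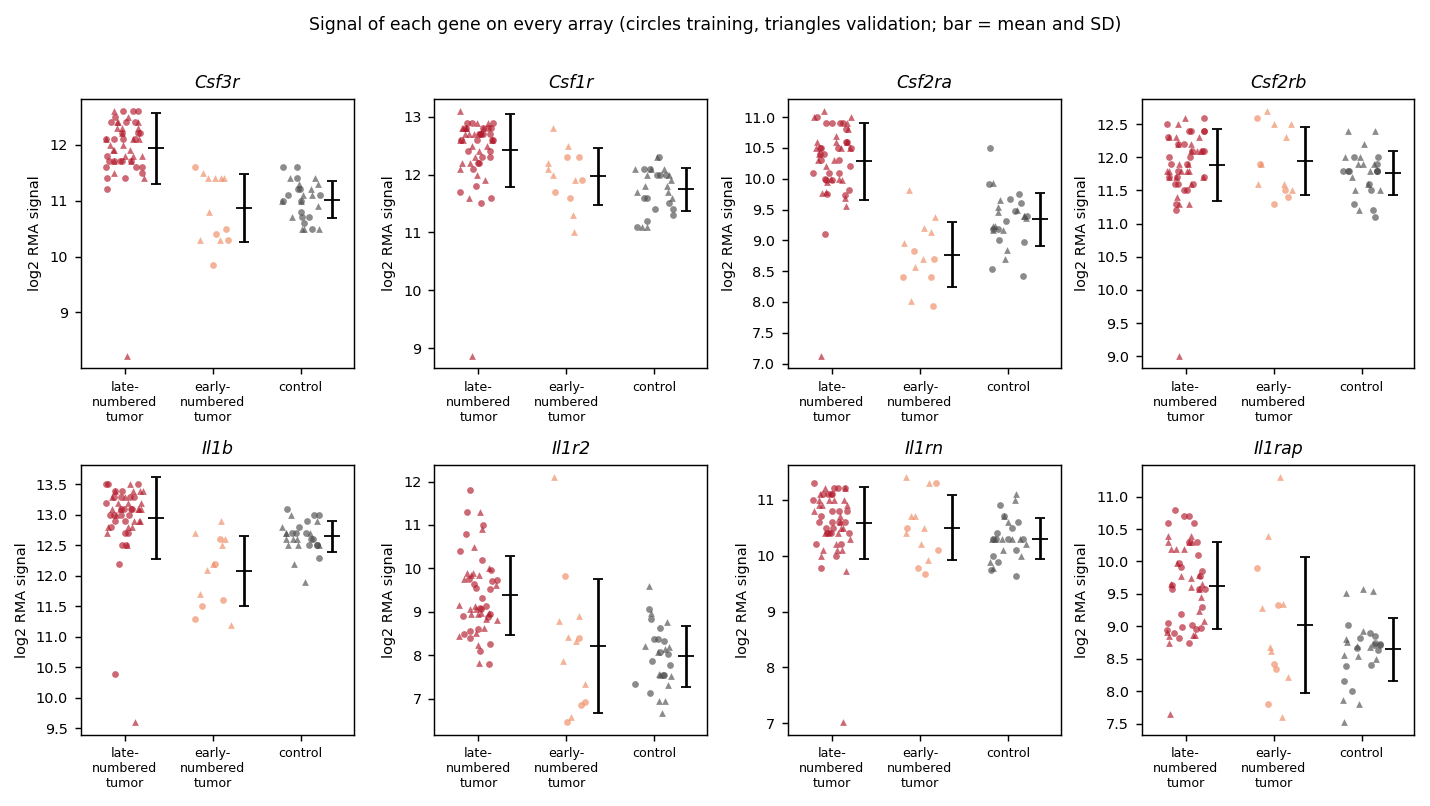
Log2 RMA signal (vertical axes) of each of the 8 genes on every array of the 3 sets (52 late-numbered tumor, 13 early-numbered tumor, 28 control); circles are training and triangles validation arrays, and bars give the mean and SD. For Csf3r, 42 of 52 late-numbered arrays lie above the highest control, and 1 late-numbered array is the lowest of its set for 7 of the 8 genes.

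Csf3r, the G-CSF receptor of the neutrophil line, had a lowest, median and highest log2 signal of 8.22, 12.05 and 12.6 in late-numbered tumor arrays, 9.85, 10.8 and 11.6 in early-numbered tumor arrays, and 10.5, 11.05 and 11.6 in controls. Of the late-numbered arrays, 42 of 52 were above the highest control and 1, array 19 of the validation cohort, was below the lowest, whereas 0 of the 13 early-numbered arrays were above the highest control and 5 were below the lowest. The rise in late-numbered arrays was 0.92 ± 0.129 (SE, log2), or 1.89-fold (adjusted p = 2.12e-09), while the early-numbered difference of -0.16 ± 0.185 was not called (adjusted p = 0.461). The sets of tumor arrays differed by 1.08 ± 0.171 (adjusted p = 4.66e-08). In the training cohort alone the early-numbered arrays were lower than controls by a called difference (-0.51, adjusted p = 0.0428), and in the validation cohort the value was 0.07 (adjusted p = 0.859); the difference between cohorts was 0.58 ± 0.373 (adjusted p = 0.544).

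Csf1r, the M-CSF receptor of monocytes and macrophages, was high in all sets, with a lowest, median and highest signal of 8.86, 12.6 and 13.1 in late-numbered, 11, 12 and 12.8 in early-numbered and 11.1, 11.8 and 12.3 in control arrays. The sets overlapped, with 35 of 52 late-numbered and 2 of 13 early-numbered arrays above the highest control. It rose by 0.67 ± 0.125 in late-numbered arrays (1.59-fold, adjusted p = 3.66e-06) and was 0.45 ± 0.167 higher there than in early-numbered arrays (adjusted p = 0.0144), where the difference from control was 0.22 ± 0.18 (adjusted p = 0.276). Both other probe sets rose in late-numbered arrays too, 1419873_s_at by 1.06 ± 0.142 (adjusted p = 4.78e-10) and 1423593_a_at by 1.26 ± 0.129 (adjusted p = 1.21e-14). The first of these was also called higher in early-numbered arrays (0.64 ± 0.204, adjusted p = 0.00466).

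Csf2ra, the ligand-binding chain for GM-CSF, moved in opposite directions in the sets of tumor arrays on its brightest probe set. Its lowest, median and highest signal was 7.12, 10.4 and 11.1 in late-numbered, 7.93, 8.7 and 9.81 in early-numbered and 8.42, 9.38 and 10.5 in control arrays. Against the control mean, 50 of 52 late-numbered arrays were above and 11 of 13 early-numbered arrays below, and 43 of 52 late-numbered arrays were above the highest early-numbered array. It rose by 0.94 ± 0.13 in late-numbered arrays (1.92-fold, adjusted p = 1.09e-09), fell by 0.57 ± 0.186 in early-numbered arrays (adjusted p = 0.00592), and the sets differed by 1.51 ± 0.172 (2.86-fold, adjusted p = 6.94e-13). In early-numbered arrays the fall was -0.90 in the training cohort (adjusted p = 0.00154) and -0.36 in the validation cohort (adjusted p = 0.29).

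The other Csf2ra probe set disagreed with this. On 1420704_at the lowest, median and highest signal was 4.73, 8.27 and 9 in late-numbered, 7.88, 8.76 and 9.93 in early-numbered and 5.94, 7.71 and 8.3 in control arrays. All 13 early-numbered arrays were above the control mean there and 11 above the highest control. The difference was 0.53 ± 0.156 in late-numbered arrays (adjusted p = 0.00334) and 1.25 ± 0.224 in early-numbered arrays (adjusted p = 1.32e-06). Only the rise in late-numbered arrays was therefore shared by both probe sets, and the direction of Csf2ra in early-numbered arrays depended on the probe set read.

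Csf2rb, the beta chain shared by the receptors of GM-CSF, IL-3 and IL-5, had nearly the same middle value in the 3 sets, with a lowest, median and highest signal of 9, 11.9 and 12.6 in late-numbered, 11.3, 11.9 and 12.7 in early-numbered and 11.1, 11.8 and 12.4 in control arrays. The sets overlapped almost wholly, with 4 of 52 late-numbered and 4 of 13 early-numbered arrays above the highest control. The late-numbered difference was 0.12 with a 95% interval from -0.10 to 0.34 (adjusted p = 0.414) and the early-numbered one 0.18 with an interval from -0.13 to 0.49 (adjusted p = 0.326), so a change of the size seen for Csf3r lay outside both intervals. The dimmer probe set 1421326_at was higher in late-numbered arrays by 0.53 ± 0.15 (adjusted p = 0.00207) and by 0.75 ± 0.2 over early-numbered arrays (adjusted p = 0.000616). Mice have a near-identical neighbouring gene, Csf2rb2, whose beta chain serves IL-3 alone, so signals of the pair are uncertain.

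Il1b, the gene of the ligand IL-1 beta, was among the brightest genes (99.2 percentile of mean level over the brightest probe set of each gene). Its lowest, median and highest signal was 9.6, 13.1 and 13.5 in late-numbered, 11.2, 12.2 and 12.9 in early-numbered and 11.9, 12.65 and 13.1 in control arrays. Of the late-numbered arrays 20 of 52 were above the highest control and 2 below the lowest, while 0 of 13 early-numbered arrays were above the highest control and 5 below the lowest. It fell by 0.56 ± 0.185 in early-numbered arrays (adjusted p = 0.00611), a value of -0.87 in the training cohort (adjusted p = 0.0041) and of -0.35 in the validation cohort (adjusted p = 0.276). The late-numbered difference of 0.30 ± 0.129 (1.23-fold) lay just past the threshold (adjusted p = 0.0466). That call was lost on leaving out any of 44 single arrays (adjusted p between 0.00111 and 0.0766 over all 93), and in each cohort alone, at 0.24 in training (adjusted p = 0.246) and 0.36 in validation arrays (adjusted p = 0.171). The sets of tumor arrays differed by 0.87 ± 0.171 (1.82-fold, adjusted p = 6.19e-06).

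A second late-numbered array was low for Il1b. Array 15 of the training cohort read 10.4, next to the 9.6 of array 19 of the validation cohort, while it had the highest Il1r2 signal of its set (11.8) and the highest neutrophil list mean (11.1).

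Il1r2, the decoy receptor, had the largest difference between late-numbered and control arrays among the 8 genes. Its lowest, median and highest signal was 7.8, 9.13 and 11.8 in late-numbered, 6.46, 8.32 and 12.1 in early-numbered and 6.67, 8.05 and 9.59 in control arrays. Nearly all late-numbered arrays, 50 of 52, were above the control mean and 21 above the highest control, and the early-numbered arrays spread on both sides of the controls. The rise was 1.41 ± 0.222 in late-numbered arrays (2.65-fold, adjusted p = 5.82e-08) with 1.38 in the training and 1.44 in the validation cohort (adjusted p = 0.000156 and 0.000293). In early-numbered arrays the difference was 0.24 ± 0.318 (adjusted p = 0.519), and the sets differed by 1.17 ± 0.294 (adjusted p = 0.000325). It also varied most from array to array: its SD was 0.911 in late-numbered, 1.55 in early-numbered and 0.707 in control arrays. The last was at the 98.3 percentile over the brightest probe set of each gene.

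A single array set the top of the early-numbered range. Array 6 of the validation cohort read 12.1 for Il1r2, against 9.82 for the next highest early-numbered array, and was also the highest of its set for Il1rap (11.3), Il1rn (11.4) and Csf2rb (12.7), but the lowest for Csf1r (11). The same array had the highest neutrophil list mean of its set (10.6, against a median of 9.08) and the lowest monocyte list mean (8.63, against 9.83).

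Il1rn, the receptor antagonist, had a lowest, median and highest signal of 7.02, 10.6 and 11.3 in late-numbered, 9.67, 10.5 and 11.4 in early-numbered and 9.63, 10.3 and 11.1 in control arrays. The sets overlapped, although 40 of 52 late-numbered arrays were above the control mean. The difference of 0.28 ± 0.13 in late-numbered arrays was not called (adjusted p = 0.0782), nor was that of 0.20 ± 0.187 in early-numbered arrays (adjusted p = 0.354). Without late-numbered array 19 of the validation cohort the first became 0.35 and was called (adjusted p = 0.00203), and leaving out control array 2 of the same cohort changed the call as well. The other probe sets were called higher in late-numbered arrays, 1425663_at by 0.59 ± 0.16 (adjusted p = 0.00138) and 1423017_a_at by 0.81 ± 0.161 (adjusted p = 1.06e-05).

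Il1rap, the accessory chain of the IL-1 receptor, had a lowest, median and highest signal of 7.65, 9.65 and 10.8 in late-numbered, 7.6, 8.68 and 11.3 in early-numbered and 7.52, 8.71 and 9.57 in control arrays. Of the late-numbered arrays 51 of 52 were above the control mean and 30 above the highest control, against 7 and 3 of the 13 early-numbered arrays. It rose by 0.98 ± 0.158 in late-numbered arrays (1.98-fold, adjusted p = 9.5e-08), the early-numbered difference was 0.37 ± 0.226 (adjusted p = 0.144), and the sets differed by 0.61 ± 0.209 (adjusted p = 0.00769).

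Its 4 other probe sets did not move together. In late-numbered arrays 3 were called higher, 1449585_at by 1.78 ± 0.204 (adjusted p = 1.72e-12), 1439697_at by 1.16 ± 0.299 (adjusted p = 0.000763) and the dim 1442614_at by 0.75 ± 0.13 (adjusted p = 7.84e-07), while 1421843_at gave 0.37 ± 0.255 (adjusted p = 0.242). In early-numbered arrays 1421843_at was lower by a called difference (-1.06 ± 0.366, adjusted p = 0.00899) and the other 3 were called higher by 0.67 to 1.59. The direction of Il1rap in early-numbered arrays thus depended on the probe set.

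Over all 18 probe sets of the 8 genes, 15 were called higher and 0 lower in late-numbered arrays, and 5 higher and 3 lower in early-numbered arrays. Between the tumor sets 12 were higher and 1 lower in late-numbered arrays. Of all 45037 probe sets, 23.9% were called higher and 19.9% lower in late-numbered arrays, and 37.9% and 24.6% in early-numbered arrays. Between the tumor sets the shares were 27% and 41%.

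**Figure D2:**
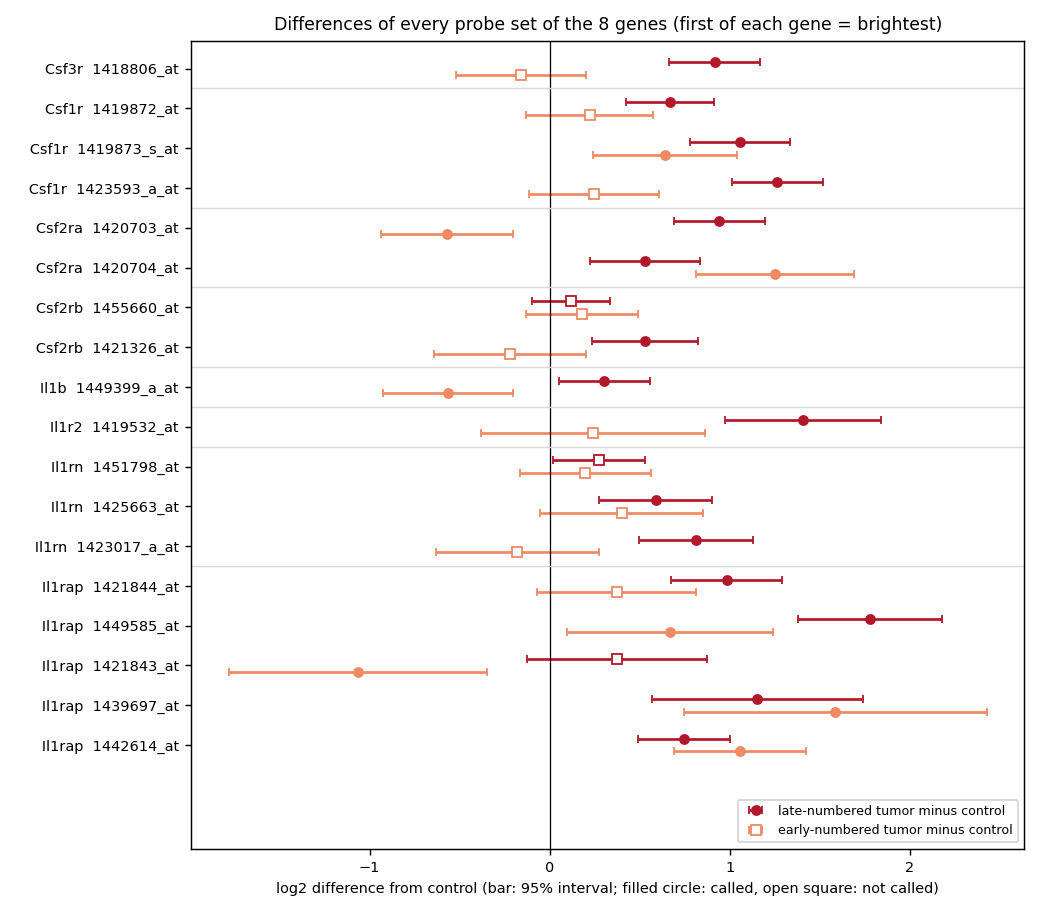
Log2 difference from control (horizontal axis) of every probe set of the 8 genes in late-numbered and early-numbered tumor arrays, with 95% intervals; filled circles were called and open squares were not. All 18 late-numbered differences lie right of 0, from 0.12 to 1.78, and the early-numbered ones lie on both sides, from -1.06 to 1.59.

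With all 65 tumor arrays set against the 28 controls, 5 of the 8 genes were called higher in tumor than in control blood (Il1r2 by 1.17 ± 0.23, Il1rap by 0.86 ± 0.158, Csf3r by 0.70 ± 0.147, Csf2ra by 0.64 ± 0.168 and Csf1r by 0.58 ± 0.125, SE on the log2 scale, adjusted p between 4.58e-06 and 0.00118) and 0 lower. Il1b differed by 0.13 ± 0.139 (adjusted p = 0.454), Csf2rb by 0.13 ± 0.107 (adjusted p = 0.323) and Il1rn by 0.26 ± 0.126 (adjusted p = 0.0853). At an unadjusted p under 0.05, 6 were higher and 0 lower. In this comparison 41.7% of all probe sets were called, 23.4% higher and 18.2% lower. The cohorts did not differ by a called amount for any of the 8 genes in either set of tumor arrays (0 also at an unadjusted p under 0.05); over all probe sets limma called 0 such differences for the late-numbered arrays (990 at an unadjusted p under 0.05) and 145 for the early-numbered arrays (5618 unadjusted).

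Markers of the myeloid cells that carry these receptors moved in the same comparisons. Of 17 measured neutrophil markers 14 rose and 0 fell in late-numbered arrays, with a median difference of 0.74, and of 16 monocyte markers 9 rose and 1 fell, with a median of 0.42. Of 13 B cell markers 0 rose and 12 fell (median -1.09), and of 11 T cell markers 1 rose and 6 fell (median -0.32). Over all genes 25.6% were called higher and 20.5% lower in late-numbered arrays, and 34.3% and 29% in early-numbered arrays. In early-numbered arrays 2 neutrophil markers rose and 3 fell (median -0.07), 1 monocyte marker rose and 6 fell (median -0.27), 10 B cell markers and 9 T cell markers fell and 0 of either rose, and 5 of 7 erythroid markers rose (median 0.63). The neutrophil list mean ran from 8.95 to 11.1 in late-numbered arrays (median 9.86), from 7.92 to 10.6 in early-numbered arrays (median 9.08) and from 7.92 to 10 in controls (median 9.18), so the sets overlapped. The monocyte list mean ran from 7.85 to 10.9, from 8.63 to 10.3 and from 9.35 to 10.5 in the same 3 sets.

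With the neutrophil and B cell list means as covariates, Csf3r (0.71 ± 0.127, adjusted p = 2.39e-06), Csf2ra (0.70 ± 0.119, adjusted p = 7.6e-07) and Csf1r (0.66 ± 0.124, adjusted p = 6.29e-06) were called higher in late-numbered arrays. The monocyte list was not a covariate, so no difference here is adjusted for monocyte markers. Il1r2 (0.30 ± 0.17, adjusted p = 0.185), Il1rap (0.32 ± 0.141, adjusted p = 0.069) and Il1b (0.29 ± 0.144, adjusted p = 0.118) were not, and Csf2rb was called lower (-0.24 ± 0.0868, adjusted p = 0.0253). In early-numbered arrays the same fit called 3 genes higher than in controls, Csf1r (0.72 ± 0.166, adjusted p = 0.000145), Csf2rb (0.47 ± 0.116, adjusted p = 0.000345) and Il1rn (0.51 ± 0.164, adjusted p = 0.00608), and 0 lower, with Csf2ra at -0.15 (adjusted p = 0.418) and Il1b at -0.21 (adjusted p = 0.361). Between the tumor sets it called Csf2ra, Il1b and Csf3r higher in late-numbered arrays, by 0.85, 0.50 and 0.49, and Csf2rb and Il1rn lower (-0.71 and -0.56). Of all 45037 probe sets it called 15410 in late-numbered arrays (8243 of them higher) and 24689 in early-numbered arrays (14874 higher). Between the tumor sets it called 27599 (11147 higher). The part of the marker cells in the differences was not tested beyond this adjustment.

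Within the sets, the 8 genes followed the neutrophil and monocyte lists to different degrees. Correlations were taken over arrays after subtraction of the mean of each set and cohort and are descriptions without a test; the values come from the same arrays and the same normalization. In the 52 late-numbered arrays Il1r2 followed the neutrophil list (Pearson r 0.843, Spearman rho 0.885, r 0.828 without the 2 arrays farthest from the median of the list), as did Il1rap (0.794, 0.833 and 0.848), and hardly the monocyte list (Il1r2 r 0.0726, rho 0.0923). Csf1r was closer to the monocyte list there, with an r of 0.898 (rho 0.642, r 0.714 without 2 arrays), which was 0.743 without array 19. Its r to the neutrophil list was 0.306 (rho 0.449). In the 13 early-numbered arrays Csf1r had an r of 0.768 (rho 0.693, 0.536 without 2 arrays) to the monocyte list. To the neutrophil list it was 0.227 there (rho 0.495, 0.835 without 2 arrays). In the 28 controls the r of Csf1r was 0.801 (rho 0.742) to the monocyte list and 0.53 (rho 0.338) to the neutrophil list. That of Il1r2 to the neutrophil list was 0.411 (rho 0.4). Il1b had an r of 0.154 (rho 0.574) to the neutrophil list in late-numbered arrays, 0.886 (rho 0.934) in the 13 early-numbered arrays and -0.16 (rho -0.168) in controls.

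**Figure D3:**
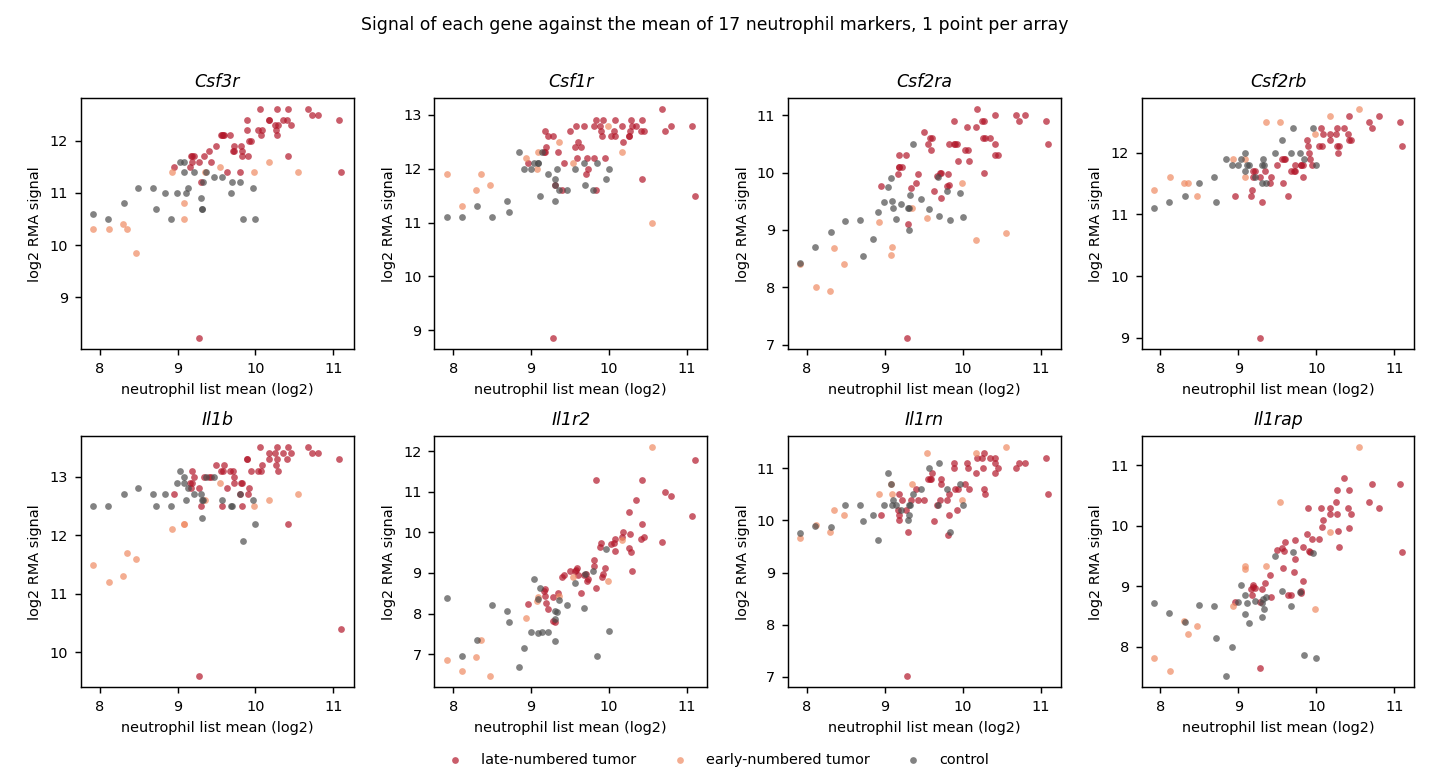
Log2 signal of each of the 8 genes (vertical axes) against the mean log2 signal of 17 neutrophil markers (horizontal axes), 1 point per array, by set. Il1r2 runs along the marker mean in late-numbered arrays (r 0.843, n = 52), and 1 late-numbered array, with a marker mean of 9.28, is the lowest of its set for 7 of the 8 genes.

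The 8 genes also varied together. Of the 28 pairs, 24 had an r over 0.5 across all 93 arrays, after the same subtraction, with a median of 0.712. In late-numbered arrays the median r was 0.768, in early-numbered arrays 0.762 and in controls 0.477. The closest pair in late-numbered arrays was Csf3r with Csf2rb (r 0.936, rho 0.867, 0.842 without 2 arrays), and Csf2rb with Il1rn stood near it (0.921, rho 0.834). The lowest r in late-numbered arrays were those of Il1b with Il1r2 (0.105, rho 0.551, 0.353 without 2 arrays) and Csf1r with Il1r2 (0.198, rho 0.313, 0.187 without 2 arrays), and the lowest rho was that of Csf1r with Il1rn (0.309, r 0.721). In controls Il1r2 was closest to Il1rap (0.809, rho 0.842), and Csf1r with Il1rap had the lowest r of -0.222.

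**Figure D4:**
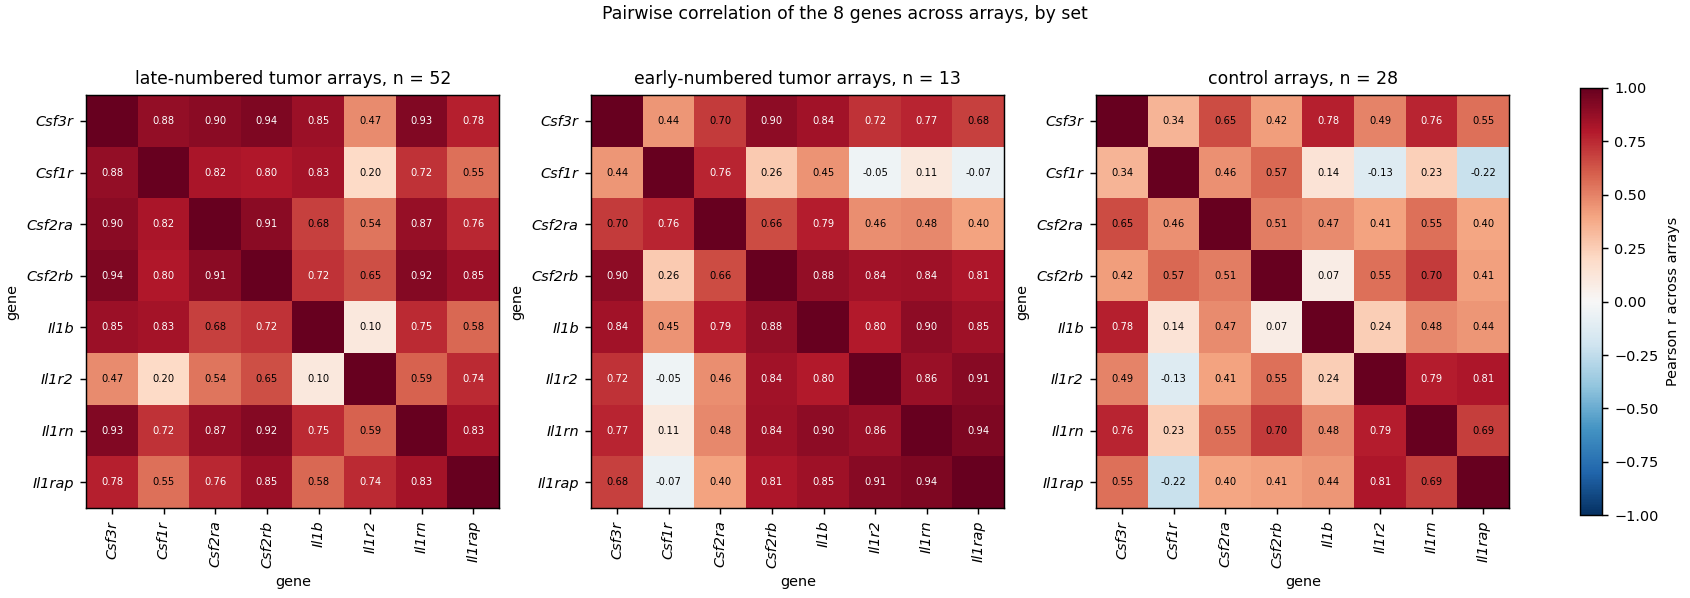
Pearson r of each pair of the 8 genes across arrays (color, -1 to 1, with values in the cells), after subtraction of set and cohort means, for 52 late-numbered tumor, 13 early-numbered tumor and 28 control arrays. Csf1r has low or negative r with Il1r2 in all 3 panels, and most other pairs are above 0.5 in the tumor panels. In the early-numbered panel the r of Csf1r with Il1r2 is -0.0465, with a rho of 0.426. It is 0.741 without the 2 arrays farthest from the median of Csf1r.

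Among 10596 other genes of at least median brightness, those most like each receptor were named by Pearson r over the 93 arrays, again after subtraction of the set and cohort means. Csf3r was closest to Mefv, the inflammasome protein pyrin (r 0.95), to Clec7a, the beta-glucan receptor dectin-1 (0.939), and to Cd300lb (0.933). Csf1r was closest to the keratin gene Krt80 (0.931), to Plcg2, a phospholipase of immune receptor signaling (0.905), and to Cyp4f16 (0.901). Csf2ra was closest to Igsf6 (0.921), to Slc11a1, a metal transporter of phagosomes (0.9), and to Tgfbi (0.894). Csf2rb was closest to Rab31 (0.959), to its neighbour Csf2rb2 (0.939) and to Tpd52 (0.936).

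Of the IL-1 genes, Il1b was closest to Clec7a (0.919), to the cytokine gene Il15 (0.895) and to Clec4n, which encodes dectin-2 (0.864). Il1r2 was closest to Dgat2, an enzyme of triglyceride synthesis (0.861), to the monocyte list gene Cd14 (0.853) and to the neutrophil collagenase Mmp8 (0.851), which is on the neutrophil list. Il1rn was closest to the arginase Arg2 (0.929), to Cd300ld (0.924) and to the chemokine receptor Ccr1 (0.918). Il1rap was closest to Ccr1 too (0.897), to Rlf (0.886) and to Nfe2l2, a factor of the oxidative stress response (0.876). The Spearman rho of these 24 relations ran from 0.806 to 0.931, and r without the 2 farthest arrays from 0.8 to 0.928.

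The other ligands and receptors of the systems moved in both directions. Of 19 measured, 6 rose and 2 fell in late-numbered arrays (median 0.08, against 0.04 over all genes, of which 25.6% were called higher and 20.5% lower), and 7 rose and 3 fell in early-numbered arrays (median -0.10, against 0.07 over all genes, 34.3% higher and 29% lower). Csf1, which encodes M-CSF, averaged 8.30 in late-numbered, 7.56 in early-numbered and 7.20 in control arrays on the log2 scale and rose by 1.09 in late-numbered arrays (adjusted p = 4.12e-08). Its other probe sets were called higher there as well, by 0.39, 0.50 and 1.26. The early-numbered difference of Csf1 was 0.38 (adjusted p = 0.169).

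The remaining colony-stimulating ligands were dim. Csf2 (GM-CSF), Csf3 (G-CSF), Il3, Il5 and Il34 had means between 2.15 and 3.49 in every set, where the deposited values ran from 1.23 to 14.9. Of these 5, Il34 rose in late-numbered arrays by 0.19 (adjusted p = 0.0339), and the other 4 were called higher in early-numbered arrays by 0.25 to 0.42. Il1a, the second IL-1 ligand, averaged 2.48, 2.68 and 2.35 in late-numbered, early-numbered and control arrays. The signaling receptor Il1r1 was also low, at 4.58, 4.30 and 4.76, and fell by 0.48 in early-numbered arrays (adjusted p = 0.0363).

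Related receptor chains did not follow a single direction. Il3ra, the alpha chain for IL-3, rose by 0.38 in late-numbered arrays (adjusted p = 0.00124), and Il5ra, the alpha chain for IL-5 on eosinophils, fell by 0.58 (adjusted p = 0.0117). Csf2rb2 averaged 9.98 in late-numbered, 10.4 in early-numbered and 10.1 in control arrays, and neither difference was called (adjusted p = 0.452 and 0.323).

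In the IL-18 branch, which uses related receptors, the ligand Il18 rose by 0.37 (adjusted p = 0.0255), its binding protein Il18bp by 0.69 (adjusted p = 0.000205) and the receptor chain Il18rap by 0.68 (adjusted p = 3.37e-09) in late-numbered arrays. The other chain of that receptor, Il18r1, named here after its value was seen, differed by -0.14 (adjusted p = 0.311). Sigirr, an inhibitory member of the IL-1 receptor family, fell by 0.90 in early-numbered arrays (adjusted p = 4.68e-06) and differed by -0.04 in late-numbered arrays (adjusted p = 0.82). The dim genes Il33 and Il1rapl1, with means of at most 2.55, were called higher in early-numbered arrays by 0.51 and 0.49.

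Signaling genes downstream of the colony-stimulating factor receptors moved in both directions in each set. Of 25 measured, 13 rose and 6 fell in late-numbered arrays (median 0.21), and 5 rose and 10 fell in early-numbered arrays (median -0.20). The shares over all genes were 25.6% higher and 20.5% lower in late-numbered arrays, and 34.3% and 29% in early-numbered arrays. Spi1, which encodes PU.1, averaged 10.2 in late-numbered, 8.79 in early-numbered and 8.89 in control arrays and rose by 1.35 in late-numbered arrays (adjusted p = 6.92e-15). Shc1, an adaptor of tyrosine kinase receptors, Pik3cd, a catalytic subunit of PI3 kinase in leukocytes, Tyk2, a Janus kinase, and Ptpn6, the phosphatase SHP-1, rose in late-numbered arrays by 0.86, 0.78, 0.54 and 0.48 and were all lower in early-numbered arrays, by log2 differences of -0.36, -0.58, -0.65 and -1.05 (adjusted p of 0.000128 or below). Jak2, the kinase that Csf2rb recruits, ran the other way on its brightest probe set, at -0.23 in late-numbered (adjusted p = 2.64e-06) and 0.67 in early-numbered arrays (adjusted p = 1.74e-16). Its other probe set rose by 0.592 in late-numbered arrays (adjusted p = 2.11e-09) and gave -0.244 in early-numbered arrays (adjusted p = 0.0677).

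Of 12 measured genes of inflammasomes and IL-1 processing, 6 rose and 2 fell in late-numbered arrays (median 0.28), and 3 rose and 3 fell in early-numbered arrays (median 0.02). Among all genes 25.6% were called higher and 20.5% lower in late-numbered arrays, and 34.3% and 29% in early-numbered arrays. Casp1, the protease that cleaves the IL-1 beta precursor, averaged 10.1 in late-numbered, 9.98 in early-numbered and 9.99 in control arrays, and neither difference was called (adjusted p = 0.466 and 0.983). The sensors Nlrp3 and Mefv rose by 0.76 and 1.35 in late-numbered arrays (adjusted p = 8.37e-07 and 2.02e-10). The adaptor Pycard and the pore protein Gsdmd rose by 0.54 and 0.61 in late-numbered arrays and had differences of -0.62 and -1.03 in early-numbered arrays, all 4 called. Nek7, which binds Nlrp3, fell by 0.46 in late-numbered arrays (adjusted p = 1.07e-16), and Naip5, a sensor of bacterial flagellin, rose by 0.68 in early-numbered arrays (adjusted p = 0.000949).

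Of 16 measured genes that carry the signal of the IL-1 receptor, 5 rose and 7 fell in late-numbered arrays (median -0.18), and 4 rose and 5 fell in early-numbered arrays (median 0.04). The shares over all genes were 25.6% higher and 20.5% lower in late-numbered arrays, and 34.3% and 29% in early-numbered arrays. The adaptor Myd88 averaged 10.8 in late-numbered, 9.22 in early-numbered and 9.63 in control arrays; it rose by 1.15 in late-numbered arrays (adjusted p = 2.1e-13) and fell by 0.42 in early-numbered arrays (adjusted p = 0.0362). The kinase Irak2 had differences of 0.22 and -0.75 in the same sets, both called. Ikbkg, the regulatory subunit of the IkappaB kinase, had differences of -0.79 and 0.79 (adjusted p = 5.13e-11 and 1.27e-06), and Tab3, an adaptor of the kinase TAK1, was called in early-numbered arrays alone (1.04, adjusted p = 1.14e-06). On its brightest probe set Mapk14, the p38 alpha kinase, fell by 0.37 in late-numbered arrays (adjusted p = 2.37e-14). Another was called higher there (0.464, adjusted p = 0.000183), and the rest, at 0.074, 0.2, -0.239 and 0.24, were not called. Peli1, a ubiquitin ligase of the pathway, fell by 0.62 in early-numbered arrays on its brightest probe set (adjusted p = 4.87e-09). Its other probe sets gave called differences of -0.297, -0.637 and 0.609 there, and 0.147, not called.

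Of 18 measured response genes of IL-1, 9 rose and 2 fell in late-numbered arrays (median 0.23), and 4 rose and 6 fell in early-numbered arrays (median -0.07). Among all genes 25.6% were called higher and 20.5% lower in late-numbered arrays, and 34.3% and 29% in early-numbered arrays. Relb, a subunit of NF-kappaB, rose by 0.59 in late-numbered arrays and fell by 0.70 in early-numbered arrays (adjusted p = 4.85e-11 and 2.99e-08). The inhibitor gene Nfkbia rose in both sets on its brightest probe set, by 0.25 and 0.64 (adjusted p = 9.91e-06 and 1.57e-12). Its other probe sets gave early-numbered differences of 1.29 and -0.41, both called (adjusted p = 4.05e-27 and 0.00236), and of -0.0168 and 0.0441, not called. In late-numbered arrays they gave 0.207, 0.716, 0.141 and 0.245 in the same order, and only 0.141 was not called. Nfkbie, another inhibitor, fell in both sets, by 1.09 and 1.23 (adjusted p = 1.69e-22 and 1.2e-16). Nfkbiz, an atypical inhibitor, fell by 0.64 in late-numbered arrays on its brightest probe set (adjusted p = 3.14e-09). Its other probe sets disagreed there, with a called rise of 0.89 (adjusted p = 1.07e-14) and a difference of 0.02 (adjusted p = 0.883).

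**Figure D5:**
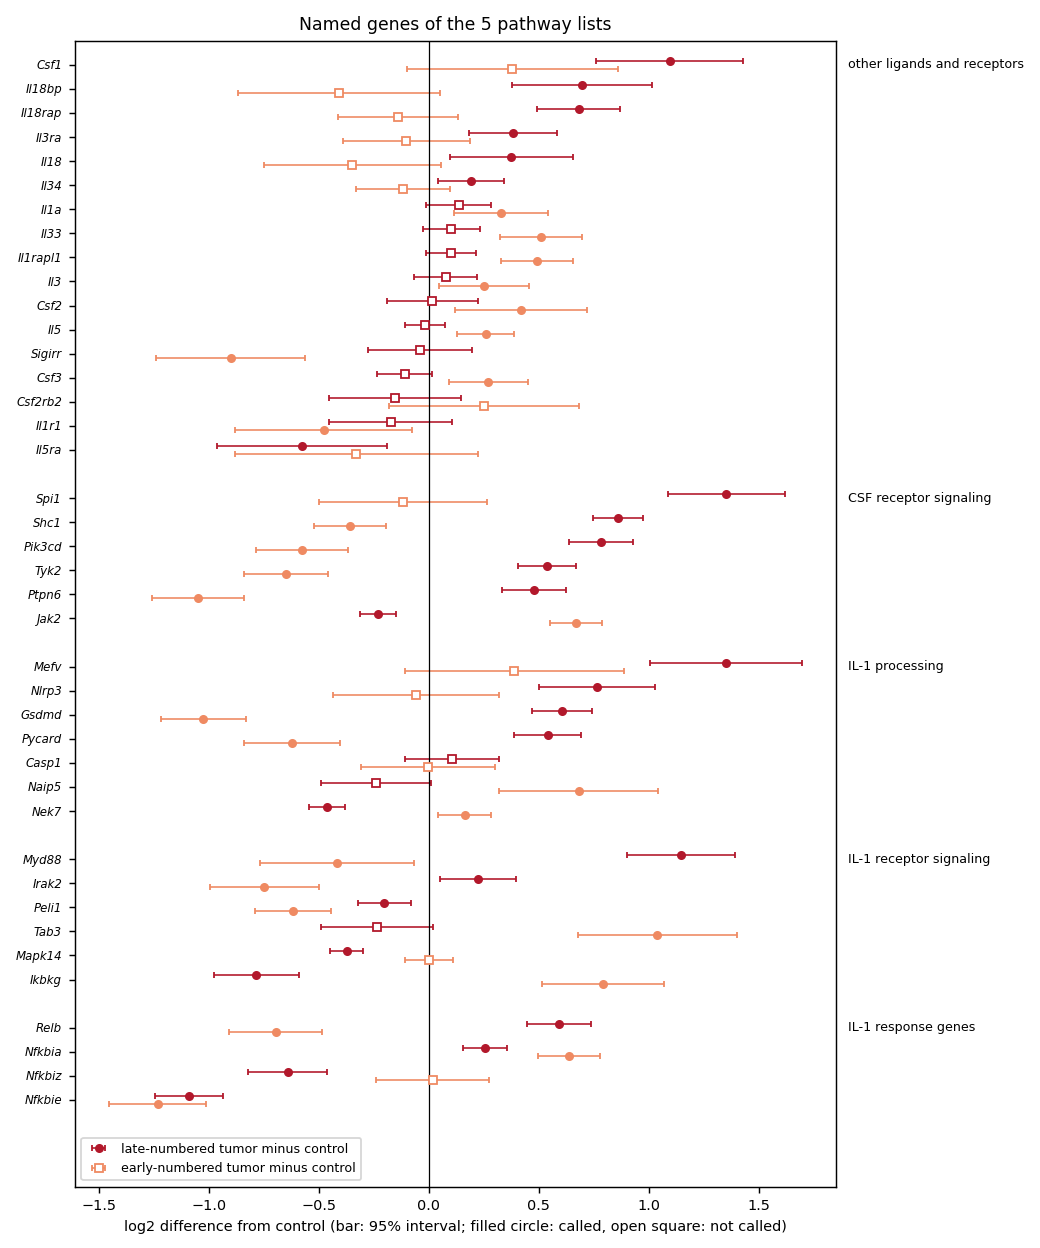
Log2 difference from control (horizontal axis) of the named genes of the 5 pathway lists in late-numbered and early-numbered tumor arrays, with 95% intervals; filled circles were called and open squares were not. Each gene is read by its brightest probe set. Pik3cd, Tyk2, Ptpn6, Pycard, Gsdmd, Myd88 and Relb lie right of 0 in late-numbered and left of 0 in early-numbered arrays. Jak2 and Ikbkg lie the reverse way.

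The technical values of the arrays bear on how far these differences can be read. With the first 3 principal components of the control probe sets, dap among them, as covariates, 0 of the 8 genes were called in late-numbered arrays (limma; 1 at an unadjusted p under 0.05), and the SE of Csf3r grew to 0.468 for a difference of -0.25 (adjusted p = 0.752). In early-numbered arrays the same fit called 5 genes higher than in controls, Il1r2 (0.92), Il1rap (0.89), Il1rn (0.68), Csf2rb (0.58) and Csf1r (0.57), with adjusted p between 0.0032 and 0.0361, and Csf2ra and Il1b gave -0.06 and -0.07 (adjusted p = 0.837 and 0.802). Between the tumor sets it called 0 genes (0 higher and 2 lower at an unadjusted p under 0.05). Of all 45037 probe sets it called 8254 in late-numbered arrays (5010 of them higher) and 21756 in early-numbered arrays (12429 higher). Between the tumor sets it called 13622 (7292 higher). With the actin difference as a covariate, 5 of the 8 were called in late-numbered arrays, Il1b being lost (0.29, adjusted p = 0.0654), and in early-numbered arrays Csf2ra remained called (-0.78, adjusted p = 0.0137) and Il1b did not (-0.46, adjusted p = 0.16). That fit called 20132 of all probe sets in late-numbered arrays (11173 higher) and 19326 in early-numbered arrays (10929 higher).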

How the data were processed

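The authors deposited log2 expression values of 93 Affymetrix Mouse Genome arrays made with RMA, which corrects background, normalizes by quantiles and condenses each probe set; its version is not given in the sources used here. Per the study's methods RNA came from fresh or stored leukocyte lysates, by a manual or an automated protocol, and was amplified with the NuGEN Ovation system; which array had which treatment is not given. Whether the deposited values hold the study's standardization on control probe sets is not stated. Values carry 3 significant digits. The number of arrays limits the precision.

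The 45037 probe sets that are no controls were fitted with limma 3.58.1 in R 4.3.3 (lmFit, eBayes with intensity trend, cohort as covariate, two-sided, Benjamini-Hochberg over all probe sets, calls at an adjusted p under 0.05), with 3 sets of arrays in 1 fit. A platform annotation gave 34945 probe sets a single symbol, 932 several and 9160 none; only the first were named. Errors of differences are standard errors (SE), those of levels standard deviations (SD). The fit was tested on simulated data. The 8 genes, the 5 pathway lists, the 12 marker lists and the tests were chosen with earlier results of these data known. Named from each pathway list were fixed core genes and the 3 with the smallest p in either comparison with control, and for each of the 8 genes the 3 most correlated genes. Listed genes were read by their brightest probe set. Other probe sets of Il1r1, Jak2, Tyk2, Pik3cd, Pycard, Nek7, Ikbkg, Peli1, Mapk14, Nfkbia and Nfkbiz did not all follow it. Alternatives were array weights, other scalings, brighter probe sets only, each cohort alone, technical or marker covariates, other probe sets, a replicate block and each array left out.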

Additional observations from a re-analysis of the deposited data

Results flagged for a closer look

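On their brightest probe sets, the genes Csf2ra and Il1b ran in opposite directions in the sets of tumor arrays, and the difference between the sets passed the test in limma itself. Csf2ra, on its brightest probe set, was higher in late-numbered and lower in early-numbered tumor arrays than in controls, and late minus early was 1.51 on the log2 scale (adjusted p = 6.94e-13). On the other probe set it was called higher than in controls in both sets (0.53 and 1.25), and late minus early was -0.72 (adjusted p = 0.00152). Il1b also was higher in late-numbered and lower in early-numbered tumor arrays, with late minus early at 0.87 (adjusted p = 6.19e-06). The late-numbered call of Il1b lay just past the threshold (adjusted p = 0.0466). It was lost on leaving out any of 44 single arrays and in each cohort alone. The early-numbered call of Il1b was lost in the validation cohort alone and with the actin difference as a covariate. Spike-in and actin values differ between the same sets, and their part in both results was not tested beyond the covariates given.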

How the results depend on the processing

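The fit without late-numbered array 19 of the validation cohort was chosen after seeing the data. Differences are log2, in the order late minus control, early minus control and late minus early. For all probe sets called, the main counts were 19728, 28173 and 30619. With validation arrays only the late minus control count was 13065 and that of all tumor arrays minus control 7656 (main 18777). With probe sets above the median level only the early minus control count was 13593, of which 28.2% were higher against 60.6% in the main result. Late minus early was 16295 there, of which 63.9% were higher against 39.6% in the main result. With 3 components of the control probe sets the late minus control count was 8254. Late minus early was 13622 there, of which 53.5% were higher against 39.6% in the main result. Leaving out each array in turn gave 19320 to 20446, 26908 to 28730 and 29734 to 31311. Members called were 6, 2 and 6; with the components they were 0, 5 (all higher, where both main calls were lower) and 0, with validation arrays only 5, 0 and 3, and with the actin difference early minus control 1; leaving out each array in turn gave 5 to 7, 2 and 6.

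Reversed differences were these. With the components, late minus control was -0.25 for Csf3r, -0.24 for Csf1r, -0.47 for Csf2rb, -0.86 for Il1b and -0.52 for Il1rn, early minus control 0.33 for Csf3r, and late minus early -0.58 for Csf3r, -0.80 for Csf1r, -0.79 for Il1b, -0.0394 for Il1r2 and -1.20 for Il1rn. With neutrophil and B cell markers, late minus control was -0.24 for Csf2rb and -0.0452 for Il1rn, early minus control 0.22 for Csf3r, and late minus early -0.0591 for Csf1r, -0.56 for Il1rn and -0.0749 for Il1rap. With validation arrays only, late minus control was -0.0491 for Csf2rb, early minus control 0.0696 for Csf3r and late minus early -0.17 for Il1rn; with training arrays only, early minus control was -0.38 for Il1r2 and late minus early 0.21 for Csf2rb. Early minus control of Csf1r was -0.0830 with the actin difference. Late minus early of Csf2rb was 0.0472 with array weights and 0.0057 without late-numbered array 19, in a range of -0.117 to 0.0057 on leaving out each array, and that of Il1rn -0.0033 with arrays centred on their medians. Early minus control of Il1r2 ran between -0.0781 and 0.395 on leaving out each array. Other probe sets gave early minus control of 1.25 for Csf2ra, -0.22 for Csf2rb, -0.18 for Il1rn and -1.06 for Il1rap, and late minus early of -0.72 for Csf2ra, 0.75 for Csf2rb and -0.43 and -0.31 for Il1rap. The cause was not tested in any of these.

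Centring gave a median over all probe sets of 0.194 for early minus control (main 0.12) and of -0.208 for late minus early (main -0.129). The late minus control call of Il1b was lost under centring (adjusted p = 0.0535) and under quantile normalization (adjusted p = 0.0508), and array weights added calls of Csf2rb (0.19, adjusted p = 0.0175) and Il1rn (0.34, adjusted p = 0.000244). The label numbers did not pair the arrays (28 same-numbered pairs, correlation of deviations -0.468 to 0.237, 11 over 0.1). With a replicate block the counts were 19680, 28071 and 30611, with 6, 2 and 6 of the 8 genes called.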
